A study of Mus musculus with 2 samples.

Results

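Class I endogenous retroviruses (ERVs) outside the leukaemia-virus-like and GLN groups were examined in mouse embryonic stem (ES) cells with and without the histone chaperone Daxx. The members were the families that the deposited table of transposable elements lists in the ERV1 superfamily, leaving out the 6 names MuLV-int, RLTR4_Mm, RLTR4_MM-int, RLTR1B-int, MMERGLN-int and MuRRS-int. This gave 104 of the 634 families in the table. By name, 20 were rodent families (names starting with RLTR, RMER or RodERV, or holding VL30), 74 were older mammalian families (names starting with MER or LTR) and 10 had other names. The last 10 hold 6 LTRIS families, which are murine and were kept apart from the older LTR names, the murine families MuRRS4-int, MURVY-LTR and MURVY-int, and HUERS-P3b-int.

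RNA-seq libraries were made starting from total RNA of 2 cultures of one genotype, Daxx fl/fl with RosaCreERT, on a B6/129 background. Cells of the 2 cultures are called control and deleted cells where values are given. Both carried loxP-flanked Daxx alleles and a Cre recombinase fused to an oestrogen receptor domain, and both grew on inactivated feeder cells, whose own RNA could not be told apart from that of the ES cells in this table. The control culture received DMSO, and the Daxx-deleted culture received 1 µM 4-hydroxytamoxifen for 48 h and then recovered for 3 days. Each condition is 1 library, so the effect of Daxx loss, that of the drug and Cre, and the difference between any 2 cultures cannot be told apart, no value has an error and no test was run. Daxx itself was not analysed here, and its loss rests on the sample labels.

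An ERV is the remnant of a retrovirus that entered the germ line. A full element has an internal part with the viral genes (names ending in -int here) between a pair of long terminal repeats (LTRs), which carry the promoter, and many copies have recombined down to a single LTR. Class I ERVs are related to gammaretroviruses, the genus of murine leukaemia virus. In ES cells ERVs are held silent largely through histone H3 methylation, and Daxx acts with Atrx to place a variant of histone H3 at repeats. VL30 elements are murine class I elements without working viral genes, and their RNA can be packaged into leukaemia virus particles. MuRRS elements are another murine group, flanked by LTRs of the LTRIS kind, and MURVY is a murine element known from the Y chromosome. MER and LTR names were mostly given to repeats that are shared among mammals or were first described in human DNA, so the mouse copies under these names are generally old and diverged.

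Values are RPKM, reads per kilobase of a family scaled by the exonic reads of genes in the library, so a value sums copies scattered over the genome and belongs to no single locus. Rodent and older families differed first in how many copies they have. The rodent families had 133 to 7363 annotated copies with a median of 1244, and all 20 had at least 100. The older families had 2 to 3484 copies with a median of 77, and 34 of 74 had at least 100. At least 1000 copies were annotated for 12 rodent families and for 1 older family, MER21B. RMER5, chosen because it had the most copies of all members, stood at 0.0198 RPKM in control cells and 0.0232 RPKM in deleted cells.

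**Figure D1:**
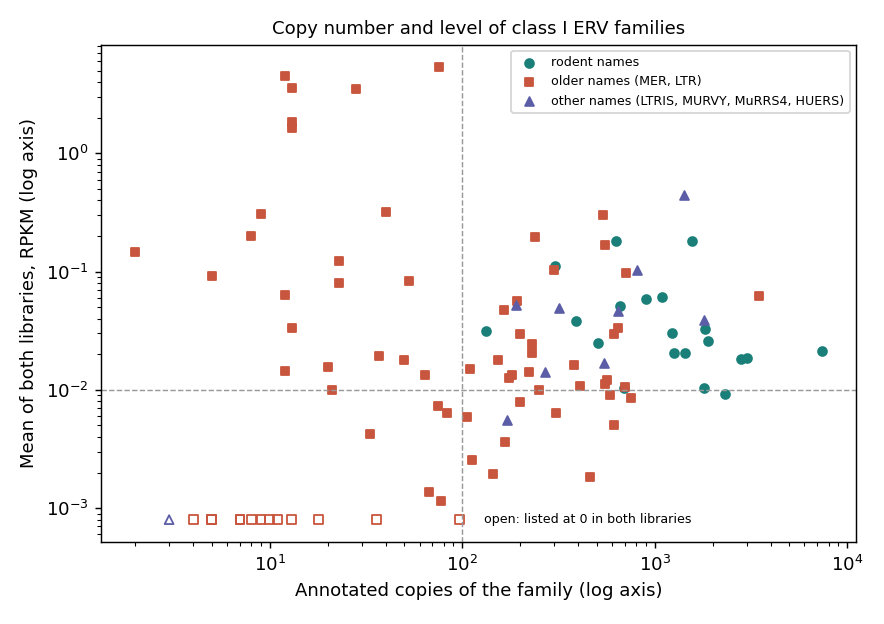
Annotated copies of each of the 104 families (x axis, log scale) against the mean RPKM of both libraries (y axis, log scale), with symbols for the kind of name and dashed lines at 100 copies and 0.01 RPKM. The families at 1 RPKM or more and those listed at 0 in both libraries all lie left of 100 copies, and the rodent families all lie right of it.

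Levels spread most widely among the families with few copies. Of the 41 members with under 100 copies, 40 had older names and 1 was HUERS-P3b-int. Among these 41, 14 were listed at 0 in both libraries, 8 were at 0 in one library, and 6 had a mean of at least 1 RPKM. No member with at least 100 copies reached 1 RPKM or was at 0 in both libraries. The highest mean among those was 0.445 RPKM, in LTRIS2. The 6 members above 1 RPKM were MER34B-int with 76 copies, MER50B with 12, LTR9 with 13, LTR45 with 28, LTR39 with 13 and MER50 with 13. Their ratios of the Daxx-deleted to the control value ran from 0.810 in LTR39 to 1.52 in MER50B, so they lay on both sides of 1. The table gives no value per copy, so it does not show how many copies of a family carried its reads. Across the 50 members with at least 100 copies and a mean of at least 0.01 RPKM, Spearman's rho between copies and mean level was 0.11. It was -0.48 over the 19 rodent families among them, 0.14 over the 23 older ones, and -0.22 over all 81 members above 0 in both libraries. Between copies and the log2 change rho was -0.17 over the 50 members, -0.11 over the rodent and -0.30 over the older ones. These values describe families that share libraries and, in part, reads.

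Of the 104 members, 66 were higher in the Daxx-deleted library, 24 were lower and 14 were at 0 in both. Of the 90 with a value above 0, 73.3% were higher. The same held for 76.9% of the 601 such families in the whole table, so this share is close to the background. For fold changes, families were kept if they had 100 copies or more and averaged 0.01 RPKM or more over both libraries, and the log2 change was taken with a pseudocount of 0.001 RPKM. This floor kept 50 members, of which 19 were rodent, 23 older and 8 of other names, and 436 families of the whole table. It left out the 41 families with few copies, of which 17 were higher in the Daxx-deleted library, 10 were lower and 14 were at 0. It also left out 13 families with at least 100 copies and a low mean, of which 9 were higher and 4 were lower. RMER2 was the only rodent family among these 13 and, chosen after its values were seen, stood at 0.00771 and 0.0106 RPKM. LTR48B, chosen in the same way because it had the lowest ratio of them, stood at 0.00880 and 0.004004 RPKM. In 7 of the 50 members the control value was below 0.01 RPKM, and these passed through their value in the Daxx-deleted library.

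Of these 50 members, 40 were higher in the Daxx-deleted library, beside 78.9% of all 436 families, and 10 were lower, beside 21.1%. At least 1.5-fold higher were 13 members, beside 15.1% of all families, and at least 1.5-fold lower were 2 members, beside 1.38%. At 2-fold there were 4 higher and 0 lower members, beside 5.28% and 0.459%. The 13 make up 26.0% of the 50, but 6 of them are among the families with a control value below 0.01 RPKM. The counts of 13 and 2 became 8 and 1 with a pseudocount of 0.01 RPKM, beside 8.49% and 0.688% of all families, and 1 and 0 with 0.1 RPKM, beside 1.83% and 0%. Among the 14 members with 1000 copies or more they were 3 and 0, beside 12.1% and 0% of all such families. The median log2 change of the members was 0.28, against 0.18 for all families at the floor, and 30 of the 50 lay above that median family. Relative to the median family, 11 members were at least 1.5-fold higher and 2 at least 1.5-fold lower, beside 9.4% and 2.75% of all families.

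**Figure D2:**
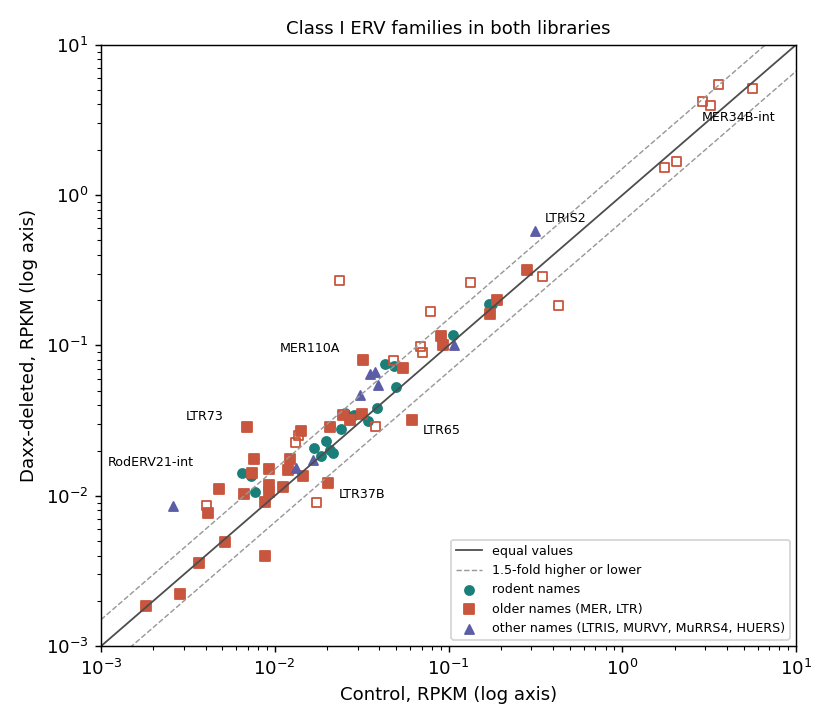
RPKM in the control (x axis) and the Daxx-deleted library (y axis), both on log scales, for the 81 families above 0 in both libraries, with filled symbols for at least 100 copies and open ones for fewer. Most points lie between the dashed lines of 1.5-fold, LTRIS2, LTR73 and MER110A lie above them, and LTR65 and LTR37B lie below.

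Rodent and older names were compared at this floor. The rodent families had a median log2 change of 0.20, with quartiles of 0.04 and 0.46. The older families had a median of 0.32, with quartiles of 0.09 and 0.57. Both ranges overlap over most of their length, and the difference of the medians, -0.12 (rodent minus older), is smaller than the spread within either kind. With summed RPKM in place of the median of families its sign turned, to 0.015. The rodent families ran from -0.15 to 1.02 and the older ones from -0.93 to 1.90, so the extremes in both directions were older families. At least 1.5-fold higher were 3 of 19 rodent families (15.8%) and 6 of 23 older families (26.1%), beside 15.1% of all families, so the rodent share is that of the background. Of these, 2 of the 3 rodent and 4 of the 6 older families had a control value below 0.01 RPKM and passed the floor through the Daxx-deleted library. No rodent family was at least 1.5-fold lower and 2 of 23 older families were, beside 1.38% of all families. The kinds also differed in copies at the floor, with medians of 1226 (rodent) and 300 (older). With 100 or more but under 1000 copies, 2 of 8 rodent (25%) and 6 of 22 older families (27.3%) were at least 1.5-fold higher. Their median log2 changes were 0.21 and 0.31. The 15.1% covers all copy numbers at the floor, and the share of all families in this copy class alone was not taken. With 1000 copies or more, 1 of 11 rodent families (9.09%) was at least 1.5-fold higher, beside 12.1% of all families with as many copies. The shares of the kinds were thus close in the lower copy class, and the part of copy number was not tested. The 8 families of other names, all murine, had a median of 0.53, and 4 of them were at least 1.5-fold higher, none with a control value below 0.01 RPKM.

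**Figure D3:**
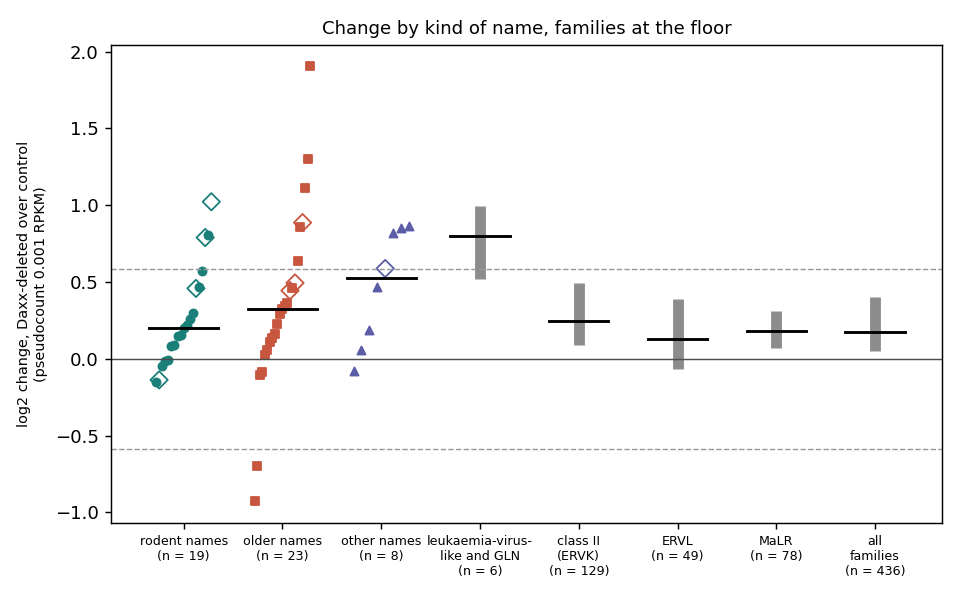
Log2 change (y axis, pseudocount 0.001 RPKM) of the members at the floor by kind of name, each point a family, open diamonds internal parts and black bars medians, with dashed lines at 1.5-fold. For comparison, grey bars give the quartiles of 4 other groups and of all 436 families; the rodent median of 0.20 and the older median of 0.32 lie beside 0.18 for all families.

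The other ERV groups of the table give a scale for these medians. The 6 leukaemia-virus-like and GLN families that were left out of the members had a median log2 change of 0.80. At least 1.5-fold higher were 4 of them, beside 15.1% of all families. Of these 4, MuRRS-int had a control value of 0.00628 RPKM and passed the floor through the Daxx-deleted library. Class II families (ERVK) had a median of 0.25 over 129 families, with 26 at least 1.5-fold higher (20.2%). The ERVL families had 0.13 over 49, with 7 at least 1.5-fold higher (14.3%). The MaLR families, LTR elements without viral genes of their own, had 0.18 over 78, with 8 (10.3%). The rodent class I median of 0.20 thus lay below that of the class II families and above those of ERVL and MaLR. The rodent quartiles of 0.04 and 0.46 overlapped with those of these 3 groups. They lay below the quartiles of the leukaemia-virus-like and GLN families, 0.52 and 0.99.

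The VL30 elements were higher in the Daxx-deleted library in each of their 3 families, beside 78.9% of all 436 families at the floor. MMVL30-int, the VL30 internal part with 903 copies, stood at 0.0431 RPKM in control cells and 0.0753 RPKM in deleted cells (ratio 1.75). RLTR6_Mm, the LTR of VL30 with 1097 copies, stood at 0.0486 and 0.0727 RPKM (ratio 1.495), with a log2 change of 0.57, just below the 1.5-fold threshold with the pseudocount. RLTR6-int, with 1226 copies, stood at 0.0255 and 0.0354 RPKM (ratio 1.39). Parts of one element can hold the same multi-mapped reads, so they are not 3 independent observations.

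The LTRIS families split by subfamily. LTRIS2, with 1424 copies, stood at 0.315 RPKM in control cells and 0.575 RPKM in deleted cells (ratio 1.82). Its difference of 0.260 RPKM was the largest of any member with at least 100 copies, followed by 0.0484 RPKM in MER110A. LTRIS3 stood at 0.0376 and 0.0671 RPKM (ratio 1.79), and LTRIS4 at 0.0352 and 0.0642 RPKM (ratio 1.82). These 3 therefore had nearly the same ratio over a range of levels. The other 3 had ratios near 1. LTRIS5 stood at 0.0133 and 0.0152 RPKM. LTRIS_Mm stood at 0.0167 and 0.0174 RPKM, a log2 change that was -0.12 relative to the median family. LTRIS_Mus, with 812 copies and the next highest level after LTRIS2, stood at 0.107 and 0.101 RPKM and was the only LTRIS family with a lower value in the Daxx-deleted library. MuRRS4-int, an internal part of the elements these LTRs flank, stood at 0.0309 and 0.0469 RPKM (ratio 1.52) over 1814 copies. Related LTRs can hold the same multi-mapped reads, whose part in the 3 matching ratios was not tested.

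MURVY-LTR, with 642 copies, stood at 0.0391 and 0.0544 RPKM (ratio 1.39). Its internal part, MURVY-int, had 0.00260 and 0.00855 RPKM and a mean below the floor, so it was in none of the counts at the floor. HUERS-P3b-int, a name from human ERVs with 3 annotated copies, was listed at 0 in both libraries. Both MURVY parts were therefore higher in the Daxx-deleted library, beside 76.9% of the 601 families above 0 in a library. The internal part started from a far lower level.

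**Figure D4:**
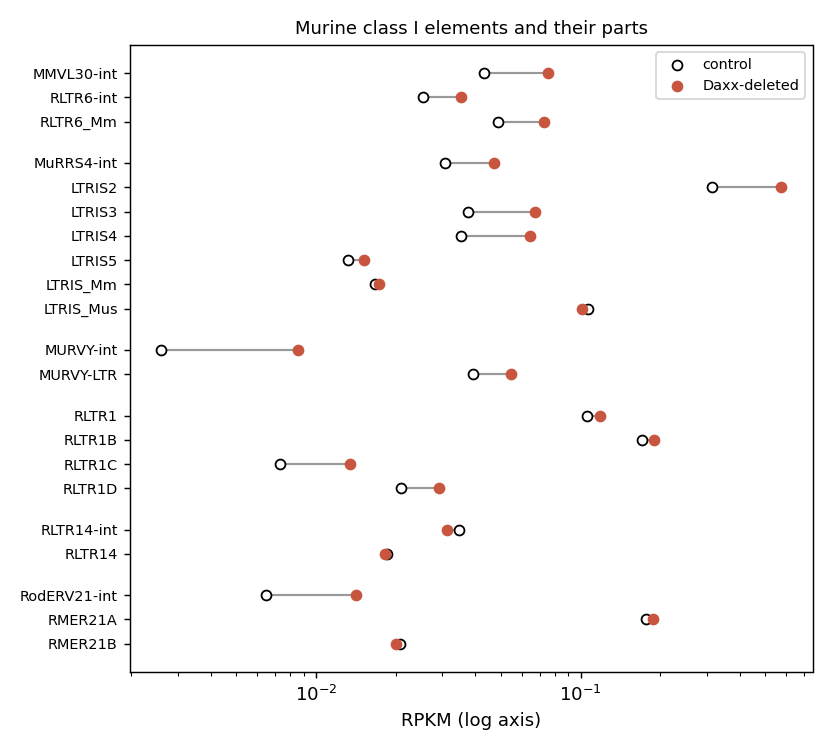
RPKM (x axis, log scale) in the control (open circles) and the Daxx-deleted library (filled circles) for murine and rodent class I elements, grouped by name. The values of the VL30 parts, LTRIS2 to LTRIS4, MuRRS4-int and RodERV21-int lie apart, while those of RLTR14, RMER21A and LTRIS_Mus stood close together.

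The remaining rodent families were mostly close to the median of all families. RodERV21-int, a rodent ERV internal part with 1812 copies, had the highest log2 change of the rodent names at 1.02, and stood at 0.00646 RPKM in control cells and 0.0142 RPKM in deleted cells. RMER21A, with the highest level of the rodent names, stood at 0.177 and 0.188 RPKM. RMER21B, chosen after its values were seen because it shares that name, stood at 0.0208 and 0.0201 RPKM. The 2 RMER21 LTRs thus had ratios near 1, both below that of the median family, and RodERV21-int had a ratio of 2.19 from a low control value.

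The 4 RLTR1 LTRs were all higher, with log2 changes from 0.15 to 0.80. Of all families at the floor, 78.9% were higher. RLTR1B, the LTR of RLTR1B-int, stood at 0.171 and 0.189 RPKM (ratio 1.11). RLTR1 stood at 0.106 and 0.118 RPKM (ratio 1.12). RLTR1C and RLTR1D, chosen after their values were seen, stood at 0.00730 and 0.0135 RPKM and at 0.0209 and 0.0292 RPKM. The 2 with the higher levels had the smaller ratios, and relative to the median family RLTR1 was at -0.02 and RLTR1B at -0.03 on the log2 scale. The internal part RLTR1B-int, which is not a member, had a ratio of 1.77, so the internal part and its LTR did not share one ratio.

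Lower values were found in 5 of the 19 rodent families at the floor (26.3%), beside 21.1% of all families, and in each by less than 1.5-fold. RLTR14-int, with 1818 copies, had 0.0346 RPKM in control cells and 0.0314 RPKM in deleted cells, and its LTR, RLTR14, was at 0.0185 and 0.0183 RPKM. RLTR24, with 1441 copies, had 0.0215 and 0.0193 RPKM, the lowest log2 change of the rodent names at -0.15. The other 2 rodent families with lower values, RMER21B and RLTR30, had ratios of 0.966 and 0.994, RLTR30 being chosen after its values were seen.

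Among the older names, most of the large ratios came from low control values. LTR73, with 154 copies, stood at 0.00692 RPKM in control cells and 0.0286 RPKM in deleted cells (ratio 4.14), and had the highest log2 change of all members at the floor. MER67A, with 175 copies, stood at 0.00760 and 0.0176 RPKM (ratio 2.32). MER110A, with 192 copies, started higher, at 0.0321 RPKM, and stood at 0.0805 RPKM in deleted cells (ratio 2.50). MER57A-int, an internal part with 231 copies, stood at 0.0142 and 0.0271 RPKM (ratio 1.91). The other 2 older families past 1.5-fold, MER57C2 and MER90a, were chosen after their values were seen and had ratios of 1.92 and 1.62 from control values of 0.00741 and 0.00929 RPKM. All 6 had fewer than 1000 copies, as did 22 of the 23 older families at the floor.

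Some related older subfamilies had other ratios, and some had like ones. MER67B, next in name to MER67A, stood at 0.0146 and 0.0135 RPKM (ratio 0.924). Of the 7 MER57 families, 5 had higher and 2 had lower values, where 76.9% of the 601 families above 0 in a library were higher. MER57-int, with 83 copies, a mean below the floor and chosen after its values were seen, had a ratio of 2.14. This was close to the 1.91 and 1.92 of MER57A-int and MER57C2, the latter from a control value of 0.00741 RPKM. MER57D, MER57F and MER57E1 were chosen in the same way. MER57D, with 300 copies, stood at 0.0905 and 0.115 RPKM (ratio 1.27), and MER57F and MER57E1 had ratios of 1.25 and 0.965. MER57E2, with 40 copies and the highest level of the 7, had 0.348 RPKM in control cells and 0.288 RPKM in deleted cells. MER110, chosen after its values were seen, was listed at 0 in the control and stood at 0.00389 RPKM in the Daxx-deleted library, so no ratio is given. MER110-int, chosen in the same way, stood at 0.0137 and 0.0252 RPKM (ratio 1.84) with 37 copies. All 3 MER110 families thus had higher values in the Daxx-deleted library, at levels far apart, beside the same background of 76.9%.

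The 2 members that were at least 1.5-fold lower were both older LTRs. LTR65, with 165 copies, had 0.0618 RPKM in control cells and 0.0321 RPKM in deleted cells (ratio 0.519). LTR37B, with 380 copies, had 0.0202 and 0.0121 RPKM (ratio 0.598). LTR37A, chosen after its values were seen, had 0.0111 and 0.0114 RPKM over 549 copies. Relative to the median family LTR37A was at -0.15 and LTR37B at -0.87 on the log2 scale, so the families next to each other in name differed in size of change. MER31B, at a higher level, had 0.173 and 0.163 RPKM, and it differed by less than 1.5-fold.

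Internal parts and LTRs of the same name were set side by side where both passed the floor, which gave 6 pairs of 5 internal parts. In 4 of the 6 the internal part had the larger log2 change. MER31-int stood at 0.0207 and 0.0285 RPKM (ratio 1.38), while its LTRs MER31A and MER31B had ratios of 1.08 and 0.943. MER31A stood at 0.0932 and 0.101 RPKM. MER21-int stood at 0.0123 and 0.0177 RPKM (ratio 1.44), and MER21B at 0.0548 and 0.0707 RPKM (ratio 1.29) over 3484 copies. MMVL30-int had a larger ratio than RLTR6_Mm, RLTR6-int had a smaller one, and RLTR14-int had a smaller one than RLTR14. A split of all members at the floor into internal parts and LTRs was added after the values were seen. The 8 internal parts had a median log2 change of 0.54, and 4 of them were at least 1.5-fold higher. The 42 LTRs had a median of 0.21, with 9 at least 1.5-fold higher (21.4%) and 2 at least 1.5-fold lower. Beside these counts stand 15.1% higher and 1.38% lower of all families, and 1 of the 4 internal parts and 5 of the 9 LTRs that were higher had a control value below 0.01 RPKM. With rodent names alone the medians were 0.62 over 4 internal parts and 0.16 over 15 LTRs, and with older names 0.49 over 3 and 0.26 over 20. Of the 4 rodent internal parts, MMVL30-int and RLTR6-int both belong to VL30 and can hold the same reads. RodERV21-int had a control value below 0.01 RPKM, and RLTR14-int was lower in the Daxx-deleted library. The ranges of internal parts (-0.14 to 1.02) and LTRs (-0.93 to 1.90) overlapped.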

How the data were processed

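RNA-seq libraries (TruSeq RNA v2, total RNA, per the labels) of 1 control and 1 Daxx-deleted culture were compared. Per the info sheet deposited with the table, the authors used JAGuaR 2.1 (BWA alignment with exon-exon junctions from Ensembl 67) on the mm9 genome and kept multi-mapped reads. BWA 0.7.10 is named in the submitters' processing notes. The RPKM values deposited by the authors are relative to the exonic reads of coding genes; mitochondrial genes, ribosomal protein genes and the 0.5% of exons with the most reads were not counted in that total. Not given in the sources used here: the repeat annotation, the sharing of multi-mapped reads, and the use of strand. Related families, and the parts of one element, can hold the same multi-mapped reads. The table also gives the number of annotated copies, and it held 0 columns from elsewhere.

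The members, lists, floor and pseudocount were chosen with earlier results of these data known. The log2 change is log2((Daxx-deleted + 0.001) / (control + 0.001)), which understates the change of low families, and a ratio is the quotient of the 2 deposited values. The rule for named families took the 6 top and 6 bottom log2 changes at the floor, the 8 highest levels, the 3 highest levels and both extreme changes of each kind of name, the pairs of LTR and internal part at the floor, and the other names at the floor (37 families). Families outside the rule are marked. With 1 library per group nothing was fitted or tested. Total reads per library are unknown. The 60 families above 0 in both libraries with the smallest product of mean RPKM and copies were taken. This product stands in for reads, as element lengths are not given. The ratios of these families between libraries were compared with quotients of whole numbers up to 6, and at the best scaling 9 came within 0.4%. Depth was therefore not recovered, and no interval or detection limit is given. The counting of calls was run on control values with exact 2-fold changes put in and no noise. These come back by construction, so this checks the code only and not calls at low levels. The alternatives were pseudocounts of 0.0001, 0.01 and 0.1 RPKM, other floors and copy minimums, a 2-fold threshold, subtraction of the median family, summed RPKM and the placing of the LTRIS names. Python 3.11.15, numpy 2.4.6, pandas 2.3.3, scipy 1.17.1 and matplotlib 3.10.9 were used.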

Additional observations from a re-analysis of the deposited data

How the results depend on the processing

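A count or median is taken as moved when it changed by over 1.5 times. The 13 members at least 1.5-fold higher and 2 lower became 8 and 1 when the pseudocount was 0.01 RPKM, 1 and 0 when it was 0.1 RPKM, 4 and 0 of 16 for a mean of 0.05 RPKM or more, 22 and 6 of 72 for any number of copies, 3 and 0 of 14 for 1000 copies or more, and 4 and 0 of 50 at 2-fold. The shares of members higher in those last 4 settings were 25%, 30.6%, 21.4% and 8%, beside 12.4%, 16.3%, 12.1% and 5.28% of all families. The shares lower were 0%, 8.33%, 0% and 0%, beside 0.69%, 2.51%, 0% and 0.459% of all families. The members' median log2 change of 0.28 was 0.18 and 0.066 with those 2 pseudocounts, 0.16 with the floor of 0.05 RPKM and 0.10 after subtraction of the median family. In the same order, the older median of 0.32 was 0.18, 0.068, 0.16 and 0.15, and it was 0.20 as the log2 ratio of summed RPKM. The rodent median of 0.20 was 0.055 with the pseudocount of 0.1 RPKM and 0.021 after subtraction. The difference of these medians, -0.12, was -0.032 with the pseudocount of 0.01 RPKM, -0.013 with 0.1 RPKM, -0.054 with no floor, -0.0085 with the floor of 0.05 RPKM, and reversed to 0.015 with summed RPKM. The causes were not tested, except that larger pseudocounts shrink every log2 change of families at these levels, and that other floors and copy minimums change which families enter. The other 30 of the 58 alternative values stayed within 1.5 times, among them both placings of the LTRIS names, which left the rodent and older medians at 0.20 and 0.32. In each placing, the median of the kind that received no LTRIS names could not change. LTRIS2, LTRIS3 and LTRIS4 lay above both medians and LTRIS5, LTRIS_Mm and LTRIS_Mus below, so the median of the receiving kind stayed too. For the 37 named families, the log2 change shifted by no more than 0.58 (1.5-fold in the ratio) in 140 of 148 alternatives and by more in 8, with pseudocounts of 0.01 RPKM (1) and 0.1 RPKM (7). Small changes cannot shift that far. With the median family subtracted, every log2 change shifts by 0.18, so those 37 alternatives could not exceed 0.58. Subtraction of the median family turned the sign of 5, which were LTRIS_Mm, RLTR1, RLTR1B, RMER21A and MER31A, and 53 other alternatives changed the log2 value by over 1.5 times with its sign kept, 29 of them with the pseudocount of 0.1 RPKM. Depth is unknown, so the counting error of the low values cannot be stated. No paired analysis was possible because there is a single library in each group.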

Other observations

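The table lists 3 further LTR families as ERV1 with a question mark, and they are not among the members. LTR81C, with 111 copies, stood at 0.191 RPKM in control cells and 0.267 RPKM in deleted cells (ratio 1.40). LTR81B, with 209 copies, stood at 0.0429 and 0.0596 RPKM (ratio 1.39). LTR81A, with 177 copies, had 0.00847 and 0.00603 RPKM and a mean below the floor. MER83A-int, a member with 2 annotated copies, was listed at 0.0234 RPKM in control cells and 0.270 RPKM in deleted cells, and MER51-int, with 5 copies, at 0.184 and 0 RPKM. Both were chosen after their values were seen, and both rest on a handful of copies. LTR64, with 9 copies and chosen in the same way, had 0.430 RPKM in control cells and 0.184 RPKM in deleted cells.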
